A study of Mus musculus with 6 samples.

Results

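The genes described here encode 9 transcription factors of the ETS family that act below the kinase ERK: Etv1, Etv4 and Etv5 (the PEA3 subfamily), Etv6, Ets1 and Ets2, and the ternary complex factors Elk1, Elk3 and Elk4. They were chosen by name, with earlier results of these data known. The array table holds 34760 features, the array's measuring units, and 11 of them carry exactly 1 of these symbols: 2 for Etv1, 2 for Etv5 and 1 for each of the other 7 genes. All 11 passed the filter on low values and were among the 16912 features tested.

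The samples were 6 arrays of mouse embryonic stem cells of strain C57Bl/6, all stably expressing the chimeric receptor GRgp-Y118F, which fuses the outer part of the receptor for granulocyte colony-stimulating factor (GCSF) to the inner part of gp130 and lacks the tyrosine through which gp130 recruits SHP2 and activates ERK. There were 2 arrays labelled LIF/PD (leukaemia inhibitory factor with PD0325901, an inhibitor of the ERK-activating kinase MEK, at 1 uM), 2 labelled GCSF and 2 untreated controls. Treated cells had been starved of serum for 6 h before a treatment of 1 h. The sources used here do not give whether the controls were starved too, whether the line is a single clone, or whether the 2 arrays of a group are separate cultures. The p-values therefore measure the spread between these samples only, which may be technical.

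ETS factors bind DNA through a shared domain that recognises a GGAA core. ERK phosphorylates many of them: Elk1, Elk3 and Elk4 sit with serum response factor on immediate early genes and switch these on when phosphorylated, and Ets1 and Ets2 are activated by phosphorylation next to their pointed domain. The PEA3 genes are themselves read out as transcriptional targets of FGF and ERK signalling, because the repressor CIC, which holds them down, is inactivated when ERK is active. In mouse embryonic stem cells, Etv4 and Etv5 are known for a role in the step out of the naive state that FGF4 and ERK drive.

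The starts of Etv5 are shown because it is the only gene of the set past the threshold below. A start of Etv1 is shown because both its features lay below controls under GCSF. Another annotated start of Etv1, at chr12:38783461-38783760, is not printed. Each sequence comes from RefSeq (GRCm38.p6), runs from 250 bases before to 50 after an annotated start, and is printed along the gene's strand. Capitals mark TGAATG on either strand (read as CATTCA on the other), the core of the site that CIC binds.

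Etv5, chr16:22438319-22438618, minus strand: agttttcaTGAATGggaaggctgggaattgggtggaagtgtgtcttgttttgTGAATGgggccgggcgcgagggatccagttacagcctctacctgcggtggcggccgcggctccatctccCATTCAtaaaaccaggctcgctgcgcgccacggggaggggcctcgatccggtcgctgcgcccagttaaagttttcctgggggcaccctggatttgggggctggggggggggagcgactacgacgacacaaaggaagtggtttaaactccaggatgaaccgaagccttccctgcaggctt
Etv5, chr16:22439521-22439820, minus strand: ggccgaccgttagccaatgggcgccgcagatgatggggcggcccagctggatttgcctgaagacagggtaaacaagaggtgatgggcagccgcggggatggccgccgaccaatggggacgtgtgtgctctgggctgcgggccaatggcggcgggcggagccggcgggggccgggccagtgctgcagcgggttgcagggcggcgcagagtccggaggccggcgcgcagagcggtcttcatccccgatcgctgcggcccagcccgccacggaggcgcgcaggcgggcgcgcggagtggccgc
Etv1, chr12:38779832-38780131, plus strand: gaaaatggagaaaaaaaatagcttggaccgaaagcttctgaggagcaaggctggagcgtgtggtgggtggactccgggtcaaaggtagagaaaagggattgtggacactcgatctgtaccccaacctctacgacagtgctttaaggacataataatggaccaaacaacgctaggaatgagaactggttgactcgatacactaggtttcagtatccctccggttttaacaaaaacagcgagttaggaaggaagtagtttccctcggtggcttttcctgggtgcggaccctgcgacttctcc

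The table of starts held 11 windows of 300 bases for 7 of the 9 genes, namely Etv1, Etv5, Etv6, Ets2, Elk1, Elk3 and Elk4. The first Etv5 window held 3 cores. Of all 32851 windows, 0.17% held at least 3 and 12.7% at least 1. The other 10 windows held 0 cores. TGAATGAA and TGAATGGA are octamers of the CIC site that contain the core. They were in 0 of the 11 windows and in 2.47% of all. The 3 cores of the first Etv5 window each read TGAATGGG on their own strand, which is neither octamer. CCGGAAGT, a high-affinity ETS site, was in 1 of the 11, an Elk4 window, and in 3.89% of all. These matches describe the letters of the windows only.

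Transcripts of ERK feedback genes check the labels. Dusp6, the phosphatase that switches ERK off, had 10.51 and 10.54 log2 units in the arrays labelled LIF/PD, 8.93 and 8.94 in those labelled GCSF, and 10.47 and 10.52 in controls. Low Dusp6 would go with MEK inhibition, but it lay in the arrays labelled GCSF, while those labelled LIF/PD were near controls. The labels of the LIF/PD and GCSF groups may be exchanged, which was not tested. Every value below belongs to the arrays that carry the label. Embryonic stem cell markers were measured above the filter in 8 of 8 cases. So were 7 of 8 fibroblast markers, of which Col3a1 rose under GCSF (0.29 ± 0.05 log2, adjusted p = 0.0410), 4 of 8 endothelial and blood markers and 5 of 7 primitive endoderm markers. The summed linear signal of stem cell markers was 44152 to 44940 under LIF/PD, 44215 to 44444 under GCSF and 42877 to 43885 in controls. That of the fibroblast list was 7281 to 7290 under LIF/PD, 7402 to 7414 under GCSF and 7252 to 7339 in controls. That of the endothelial and blood list was 943 to 989 under LIF/PD, 937 to 976 under GCSF and 950 to 952 in controls, and that of the primitive endoderm list was 2087 to 2125 under LIF/PD, 1987 to 2021 under GCSF and 1956 to 2032 in controls. What part other cells played in the values below was not tested. On arrays of whole cultures, fewer cells of a type and less RNA per cell cannot be told apart.

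**Figure D1:**
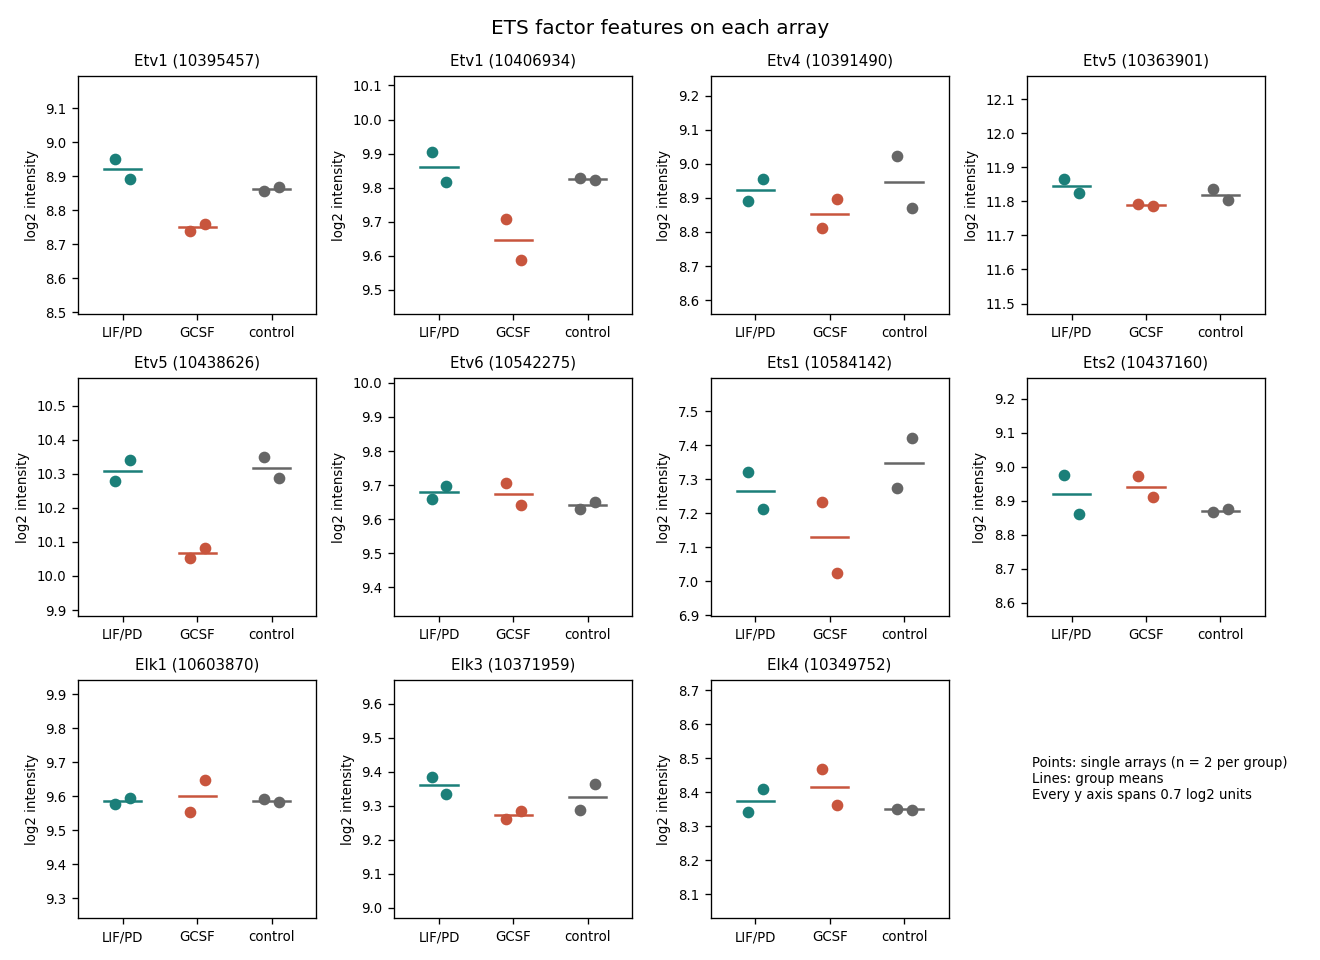
Log2 intensity of each of the 11 ETS factor features on each of the 6 arrays, by label (points, 2 arrays per group; lines, group means; every axis spans the same range of log2 units). Etv5 feature 10438626 sits at 10.05 and 10.08 under GCSF, apart from LIF/PD and controls, while Elk1 overlaps in all groups.

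Setting GCSF against control asks, by its label, which of these genes differ after starvation and stimulation of the chimeric receptor. Whether controls were starved is not given, so the parts of starvation and stimulation cannot be told apart. Etv5 was lower on 1 of its features, with a change of -16.0%, and 0 of the 11 features were called higher. A feature was called at a Benjamini-Hochberg adjusted p under 0.05 in limma, a linear model fitted across all tested features. The 1 of 11 called lower stands against 0.367% of all tested features called lower, 0.804% called higher and 1.17% called in all.

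Etv5 feature 10438626 had 10.05 and 10.08 log2 units under GCSF, against 10.35 and 10.29 in controls. The groups did not overlap, and both GCSF arrays lay below both controls. The log2 difference was -0.25 ± 0.04 (SE, n = 2 arrays per group; 95% interval -0.35 to -0.16; adjusted p = 0.0306 by limma). This call was lost with any 1 of the 6 arrays left out, when the adjusted p lay between 0.0606 (without LIF/PD replicate 1) and 0.263 (without control replicate 1), though the difference stayed between -0.28 and -0.22. It was also lost under 4 other settings given further on.

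The other Etv5 feature, 10363901, had 11.79 and 11.79 under GCSF, against 11.84 and 11.80 in controls. Its difference of -0.03 ± 0.03 did not pass (adjusted p = 0.777), and its interval, -0.11 to 0.05, did not reach that of the first feature. With both features averaged, Etv5 differed by -0.14 ± 0.03 (adjusted p = 0.111). Features of this array run largely along the chromosomes in the order of their identifiers. Of 40 neighbours of feature 10363901 in that order, 39 were of genes on chromosome 10 in GRCm38.p6 and 0 on chromosome 16, where Etv5 lies, whereas all 39 neighbours of feature 10438626 were on chromosome 16. Such a mismatch was found for 2.92% of the features with 1 symbol. Where the feature's probes lie was not tested.

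Etv1, the PEA3 factor known as a driver in some sarcomas and prostate cancers, had values of 8.74 and 8.76 on feature 10395457 under GCSF, against 8.86 and 8.87 in controls. On feature 10406934 it had 9.71 and 9.59 under GCSF, against 9.83 and 9.82 in controls. Both features were lower in both GCSF arrays than in either control. The differences were -0.11 ± 0.05 and -0.18 ± 0.05, and neither passed (adjusted p = 0.406 and 0.212). Over the 6 arrays the 2 features had a Pearson r of 0.89 and those of Etv5 of 0.69, as a description of arrays that fall into 3 groups. Feature 10406934 also stands apart in identifier order, with 35 of 38 neighbours on chromosome 13 and 0 on chromosome 12, where Etv1 lies.

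Etv4, the third PEA3 gene, had 8.81 and 8.90 under GCSF, against 9.02 and 8.87 in controls. The groups overlapped, and the difference of -0.09 ± 0.06 did not pass (adjusted p = 0.621; interval -0.24 to 0.05). All 5 PEA3 features, from 3 genes, thus had negative differences, from -0.25 to -0.03 with a median of -0.11. The median of all tested features was 0.01, and the share of them with negative differences is not given here. Among the 5 are Etv5 feature 10363901 and Etv1 feature 10406934, which stand apart in identifier order. Whether these measure PEA3 genes was not tested. The 5 signs were the same under quantile normalization and median centring of these same arrays, which adds no separate support. The difference of feature 10363901 was -0.0078 under quantile normalization.

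Ets1, best known from lymphoid and endothelial cells, had 7.23 and 7.02 under GCSF, against 7.27 and 7.42 in controls. The difference of -0.22 ± 0.09 was close to that of Etv5 feature 10438626 in size, but its interval ran from -0.43 to -0.0041 and it did not pass (adjusted p = 0.402). The mean of Ets1, 7.25, was the lowest of the 11 features, not far above the filter value of 6.70. With the filter set at the median of feature means, Ets1 was not tested. Ets2, its close relative, had 8.97 and 8.91 under GCSF, against 8.87 and 8.88 in controls, a difference of 0.07 ± 0.06 (adjusted p = 0.671).

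Etv6, which unlike the PEA3 factors acts mainly as a repressor, had 9.71 and 9.64 under GCSF, against 9.63 and 9.65 in controls, and differed by 0.03 ± 0.04 (adjusted p = 0.811). The ternary complex factors did not pass either. Elk1, the classical ERK substrate of this group, had 9.55 and 9.65 under GCSF, against 9.59 and 9.58 in controls, a difference of 0.01 ± 0.05 with an interval from -0.09 to 0.12. Elk3, a repressor until it is phosphorylated, had 9.26 and 9.28 under GCSF, against 9.29 and 9.36 in controls (-0.05 ± 0.05). Elk4 had 8.47 and 8.36 under GCSF, against 8.35 and 8.35 in controls (0.07 ± 0.06). The intervals of these 3 genes reached 15.1% at the upper end, in Elk4, and -10.6% at the lower, in Elk3.

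In all, 8 of the 11 features did not overlap between GCSF and control, 2 above (Ets2 and Elk4) and 6 below. Among all tested features 41.8% did not overlap, 23.7% above and 18.2% below. At an unadjusted p under 0.05 there were 4 of 11 (both of Etv1, the called one of Etv5, and Ets1), against 12.1% of all features. The median difference of the 11 was -0.05.

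**Figure D2:**
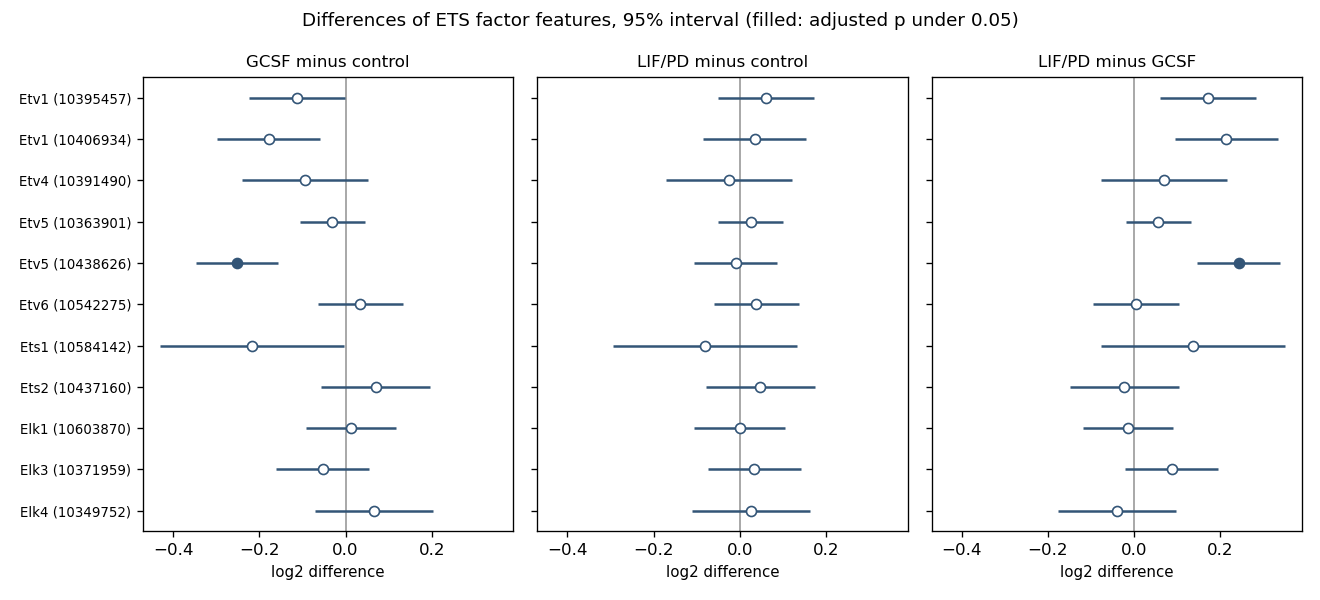
Log2 differences of the 11 features in the 3 comparisons (points, limma estimates; bars, 95% intervals; filled points, adjusted p under 0.05). Etv5 feature 10438626 is filled in both comparisons that involve GCSF, at -0.25 and 0.24, and every LIF/PD minus control interval spans 0.

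Setting LIF/PD against control compares, by its label, cells given LIF and the MEK inhibitor together with untreated cells. No group had LIF or the inhibitor alone, and starvation of the controls is not given. The parts of LIF, inhibitor and starvation cannot be told apart. None of the 11 features was called by limma, and 0 had an unadjusted p under 0.05, where 0.065% of all tested features were called (0.0591% higher and 0.00591% lower) and 6.59% had such a p. The differences ran from -0.08 for Ets1 to 0.06 for Etv1, with a median of 0.03 against 0.01 for all features. In 2 features the groups did not overlap, Etv1 feature 10395457 and Etv6, both above control, against 38.4% of all features, 24% above and 14.4% below.

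Etv5 feature 10438626 had 10.28 and 10.34 under LIF/PD, against 10.35 and 10.29 in controls, so the groups overlapped. Its difference was -0.01 ± 0.04, with an interval from -0.11 to 0.09, or a change between -7.04% and 6.19%. On feature 10363901 it had 11.87 and 11.82 under LIF/PD, against 11.84 and 11.80 in controls (0.03 ± 0.03). Etv1 had 8.95 and 8.89 on feature 10395457 under LIF/PD, against 8.86 and 8.87 in controls (0.06 ± 0.05), and 9.90 and 9.82 on feature 10406934 under LIF/PD, against 9.83 and 9.82 in controls (0.03 ± 0.05). These intervals bound a rise of Etv1 at 12.6% and 11.3%.

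Etv4 had 8.89 and 8.95 under LIF/PD, against 9.02 and 8.87 in controls (-0.02 ± 0.06). Ets1 had 7.32 and 7.21 under LIF/PD, against 7.27 and 7.42 in controls (-0.08 ± 0.09), and Ets2 had 8.98 and 8.86 under LIF/PD, against 8.87 and 8.88 in controls (0.05 ± 0.06). Etv6 had 9.66 and 9.70 under LIF/PD, against 9.63 and 9.65 in controls (0.04 ± 0.04). The values of Elk1, the member that moved least, were 9.58 and 9.60 under LIF/PD and 9.59 and 9.58 in controls, an interval from -0.11 to 0.10. Elk3 had 9.39 and 9.33 under LIF/PD, against 9.29 and 9.36 in controls (0.03 ± 0.05), and Elk4 had 8.34 and 8.41 under LIF/PD, against 8.35 and 8.35 in controls (0.03 ± 0.06). All 11 intervals of this comparison spanned 0.

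The difference between LIF/PD and GCSF is formed from their own 4 arrays, while its error is taken from all 6, controls included. Etv5 feature 10438626 was higher under LIF/PD, at 10.28 and 10.34, against 10.05 and 10.08 under GCSF. The difference was 0.24 ± 0.04, an 18.3% higher signal (interval 10.7% to 26.4%; adjusted p = 0.0433 by limma). This call too was lost with any 1 array left out (adjusted p 0.0823 without GCSF replicate 2 to 0.255 without LIF/PD replicate 2), with the replicate number as a block (adjusted p = 0.0541), with only the 4 arrays of these groups in the fit (adjusted p = 0.0902), and under 6 other settings given further on. Of the 11 features 1 was called higher and 0 lower, where 0.402% and 0.443% of all features were (0.846% in all), or 68 and 75. After median centring of each array those counts were 111 and 57.

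Both Etv1 features lay above GCSF in both LIF/PD arrays, with differences of 0.17 ± 0.05 and 0.21 ± 0.05 that did not pass (adjusted p = 0.189 and 0.142). Their intervals, 4.31% to 21.7% and 6.71% to 26.0% higher, did not span 0. Etv4 (0.07 ± 0.06) and Etv5 feature 10363901 (0.06 ± 0.03, adjusted p = 0.567) were positive as well, so the 5 PEA3 features ran from 0.06 to 0.24, with a median of 0.17 against 0.00 for all features. Their signs were the same under quantile normalization and median centring of the same arrays. The GCSF arrays are also those set against control above, so these signs add no separate support. The 5 features come from 3 genes and again include features 10363901 and 10406934, which stand apart in identifier order.

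Outside the PEA3 genes the differences between LIF/PD and GCSF were 0.14 ± 0.09 for Ets1, 0.09 ± 0.05 for Elk3, 0.00 ± 0.04 for Etv6, -0.01 ± 0.05 for Elk1, -0.02 ± 0.06 for Ets2 and -0.04 ± 0.06 for Elk4, with adjusted p between 0.530 and 0.984. In this comparison 5 of 11 features did not overlap, all above (both of Etv1, both of Etv5, and Elk3), against 41.5% of all features, 22.4% above and 19.1% below. At an unadjusted p under 0.05 there were 3 of 11, namely those of Etv1 and Etv5 feature 10438626, against 11.8% of all features.

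Of 14019 features with 1 symbol, those whose values over the 6 arrays were most like Etv5 feature 10438626 were Tor3a (Pearson r 0.998), Gss (0.991) and Id3 (0.990). Tor3a differed from control by -0.35 under GCSF and by -0.03 under LIF/PD, Gss, a glutathione synthesis enzyme gene, by -0.16 under GCSF and -0.01 under LIF/PD, and Id3, a BMP target, by -0.81 under GCSF and -0.06 under LIF/PD. In all, 280 features had an r above 0.9, so these 3 are the nearest of many. The comparisons with control share the same 2 control arrays.

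Other genes of the family and the pathway were taken from lists. Of 13 tested features, from 12 of 17 other ETS genes listed, 1 rose and 0 fell under GCSF, 0 were called under LIF/PD (2 at an unadjusted p under 0.05), and 2 were lower under LIF/PD than under GCSF. The median difference was 0.10 under GCSF and 0.06 under LIF/PD. Spic, an ETS factor known from red pulp macrophages, had 7.12 and 7.19 under GCSF, against 6.62 and 6.57 in controls (0.56 ± 0.07, adjusted p = 0.00918). With 6.68 and 6.63 under LIF/PD, against 7.12 and 7.19 under GCSF, it was also lower under LIF/PD (-0.50 ± 0.07, adjusted p = 0.0235). Its means under LIF/PD (6.65) and in controls (6.59) lay below the filter value of 6.70, so it was tested only through its GCSF arrays (7.15), and these 2 calls do not support the list's counts. With no filter on any feature the adjusted p was 0.0158 for GCSF against control and 0.0380 for LIF/PD against GCSF (limma). Elf3, an epithelial ETS factor, had 8.87 and 8.86 under LIF/PD, against 9.17 and 9.15 under GCSF (-0.30 ± 0.05, adjusted p = 0.0493), while its difference between GCSF and control did not pass (0.23 ± 0.05, adjusted p = 0.115). Erf, an ETS repressor that ERK drives out of the nucleus, had 10.05 and 10.15 under GCSF, against 9.89 and 9.77 in controls, and did not pass (0.27 ± 0.05, adjusted p = 0.0691). Under LIF/PD it had 10.03 and 10.06, against 9.89 and 9.77 in controls (0.22 ± 0.05, adjusted p = 0.521). Gabpa (0.08 ± 0.05), Elf2 (0.10 ± 0.06) and Etv3 (0.04 ± 0.06) did not pass under GCSF.

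**Figure D3:**
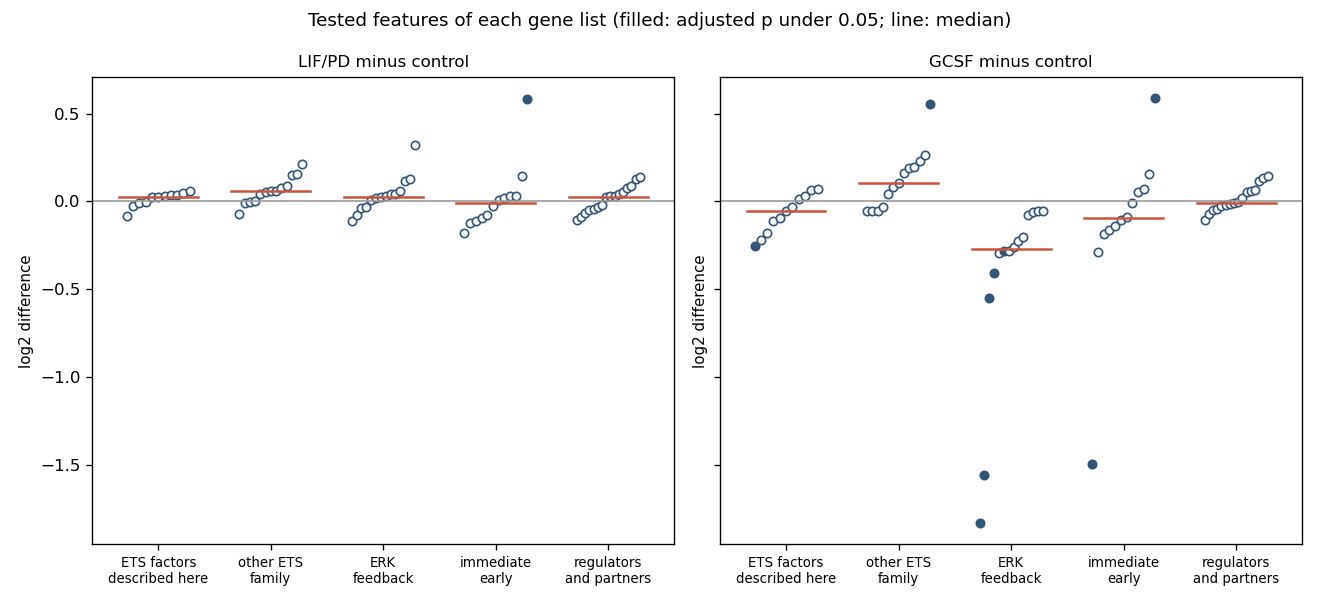
Log2 difference from control of every tested feature in the ETS factors described here and in 4 other lists, under LIF/PD and under GCSF (points, features; filled, adjusted p under 0.05; lines, medians). Under GCSF the ERK feedback list has a median of -0.27 and the ETS factors one of -0.05. All lists were chosen with earlier results of these data known.

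The ERK feedback list and the ETS factors were chosen with earlier results of these data known, so setting them side by side only describes these arrays. ERK feedback genes had larger differences under GCSF. Of 14 features of 12 genes, 5 were lower and 0 higher under GCSF, with a median of -0.27. Under LIF/PD 0 were called against control (1 at an unadjusted p under 0.05), and 5 were higher and 0 lower under LIF/PD than under GCSF. Those that fell were Dusp6 (-1.56 ± 0.04), Spry4, which encodes a Sprouty inhibitor of receptor signalling (-1.83 ± 0.06), the phosphatase gene Dusp4 (-0.55 ± 0.06), Spry1 (-0.41 ± 0.07) and Errfi1, which encodes an inhibitor of the EGF receptor (-0.28 ± 0.04). Spry2 was higher under LIF/PD than under GCSF (0.58 ± 0.06, adjusted p = 0.00515). Dusp5 (-0.29 ± 0.05, adjusted p = 0.0501), Spred1 (-0.23 ± 0.05), Spred2 (-0.05 ± 0.04 and -0.06 ± 0.06) and Il17rd (-0.20 ± 0.05 and -0.06 ± 0.07) did not pass under GCSF. The difference of Etv5 feature 10438626 was thus near that of Errfi1 in size and well short of those of Dusp6 and Spry4. That of the other Etv5 feature was -0.03 and that of both averaged -0.14, each smaller than that of Errfi1.

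Immediate early genes, the targets on which Elk1, Elk3 and Elk4 act with serum response factor, were called in both directions under GCSF. Of 12 tested features 1 rose and 1 fell under GCSF, with a median of -0.10, and 1 rose and 0 fell under LIF/PD. Between LIF/PD and GCSF 1 was higher and 0 lower. At an unadjusted p under 0.05 by limma there were 4 under GCSF, 2 under LIF/PD and 3 between the 2 groups. Egr1 had 8.34 and 8.17 under LIF/PD, 6.98 and 6.90 under GCSF, and 8.49 and 8.38 in controls. It fell under GCSF (-1.49 ± 0.08, adjusted p = 5.13e-05) and was higher under LIF/PD than under GCSF (1.31 ± 0.08, adjusted p = 0.000158). Junb had 7.68 and 7.73 under LIF/PD and 7.67 and 7.75 under GCSF, against 7.17 and 7.07 in controls. It rose by 0.58 ± 0.07 (adjusted p = 0.0400) under LIF/PD and by 0.59 ± 0.07 (adjusted p = 0.00492) under GCSF. With no filter the adjusted p of Junb by limma was 0.0510 under LIF/PD, no longer a call, and 0.00721 under GCSF. The calls against control share the 2 control arrays. Srf, the partner itself, lay at -0.01 ± 0.05 under GCSF, and Mcl1 (0.07 ± 0.03), Nr4a1 (-0.18 ± 0.06) and Ier2 (-0.14 ± 0.06) did not pass.

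Among regulators and partners of ETS factors, 16 features, from 12 of 16 genes listed, were tested and 0 were called in any of the 3 comparisons (limma, with 2 at an unadjusted p under 0.05 in each). Under GCSF the coactivator genes Crebbp and Ep300 differed by 0.02 ± 0.03 and -0.04 ± 0.04, Map2k1, which encodes MEK1, by 0.14 ± 0.05, and the 3 features of the serum response cofactor gene Mrtfb by -0.01 to 0.07. Cic, named here after its values were seen because its protein represses the PEA3 genes, had 9.09 and 9.12 under GCSF, against 8.96 and 8.99 in controls (0.13 ± 0.05, adjusted p = 0.296). Under LIF/PD its difference from control was 0.03 ± 0.05 (limma adjusted p = 0.945). It falls outside the rule by which the other genes were named.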

How the data were processed

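Per the labels' protocols, TRIzol was used to extract total RNA, which was biotin-labelled for 1-colour arrays. The deposited table was read as log2 intensity from its values, 2.29 to 14.50; its log base, background correction and normalization are not given in the sources used here, and values were used as deposited. The number of arrays, 2 per group, limits the precision. Symbols came from the platform table (21640 features with 1 symbol, 1321 with several, the rest with none). After 6573 control features below the first annotated identifier were left out, the filter kept features whose mean reached the 40th percentile (6.70). limma 3.58.1 in R 4.3.3 fitted 1 mean per group over all 6 arrays with an intensity trend (residual and total degrees of freedom 3 and 8.4). Two-sided p-values were Benjamini-Hochberg adjusted over 16912 features; intervals are 95%. The fit was also run on simulated data, but the outcome is not given here and adds no support for the calls. Deviations of replicates with the same number were weakly correlated between groups (r 0.00712 to 0.099), and the main fit did not pair them. Whether replicate numbers share a batch cannot be told from this. Members and lists (other ETS genes, ERK feedback, immediate early, regulators and partners, 4 marker lists) were chosen with earlier results of these data known. Named were all members, called list genes, up to 4 more per list by mean, and the 3 genes most like a called member. Cic was named in addition. The marker lists showed, besides Col3a1, a rise of Tdgf1 under GCSF (0.30 ± 0.03), which was lower under LIF/PD than under GCSF (-0.17 ± 0.03), Utf1 higher under LIF/PD than under GCSF (0.23 ± 0.03), and no further call by limma.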

Additional observations from a re-analysis of the deposited data

How the results depend on the processing

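The 1 call of Etv5 under GCSF against control became 0 with variances fitted without their intensity trend, with only the 4 arrays of the groups compared, with the control block median as a covariate, and with features of a gene averaged. Between LIF/PD and GCSF the 1 call of Etv5 became 0 under those settings and also with no filter, quantile normalization, array weights or the replicate block; 0 members were called between LIF/PD and control under any setting. With any 1 array left out, members called were 0 in each comparison. All 24 lost calls were of Etv5, on feature 10438626 or, with features averaged, on the mean of its 2 features, and these differences kept their sign in both comparisons where Etv5 was called, and 0 calls of other members were gained under any setting. Over all features the calls were 198 under GCSF, 11 under LIF/PD and 143 between them, which became 125, 1 and 71 without the trend. The covariate gave 99 under GCSF and 26 between LIF/PD and GCSF, the 4 arrays of the groups compared gave 82 between them, and median centring gave 17 under LIF/PD. With 1 array left out they ran from 88 to 164, 1 to 7 and 30 to 91, where the lone array of a group was assumed to vary like the others. A replicate block left 195, 9 and 165 calls. Some list calls were lost with no filter, by limma adjusted p. These were Junb under LIF/PD (0.0510), and Spry1 (0.0542) and Col3a1 (0.0590) under GCSF. Between LIF/PD and GCSF they were Elf3 (0.0671) and Tdgf1 (0.0571), and the other list calls were kept. Fewer arrays or degrees of freedom also lower power; the cause of the other losses was not tested.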
